A study of Mus musculus with 6 samples.

Results

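The phagocyte NADPH oxidase genes Cybb, Cyba, Ncf1, Ncf4 and Rac2 were followed in sorted mouse pre-granulocyte-macrophage progenitors (PreGMs). They were chosen by name, as every probe set annotated to exactly 1 of these 5 symbols, which gave 5 probe sets of 34760, or 5 of the 19937 genes measured. Each gene had 1 probe set. The study compared 3 arrays of PreGMs from mice labelled Cebpa flox/flox with 3 arrays from mice labelled Cebpa flox/flox;Mx1Cre, each array from a separate mouse per the design text. All 6 mice were female C57BL/6 animals that carried the floxed Cebpa alleles and had received pIC (polyinosinic-polycytidylic acid), and marrow was taken 18 days later. Their age is not given in the labels. Mx1Cre drives the Cre recombinase from the interferon-inducible Mx1 promoter, which pIC switches on in many cell types besides blood progenitors, so the deletion is not limited to the sorted cells. The sort took lineage-negative, Sca1-negative, Kit-positive marrow cells lacking CD150, CD41, FcγRII and endoglin.

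The phagocyte oxidase, NOX2, passes electrons from NADPH across a membrane to oxygen and so makes superoxide, the first product of the respiratory burst with which neutrophils and macrophages kill microbes. Its membrane core, flavocytochrome b558, is made of gp91phox (Cybb) and p22phox (Cyba). On activation cytosolic subunits, among them p47phox (Ncf1) and p40phox (Ncf4), move to this core together with the small GTPase Rac, of which Rac2 is the form restricted to blood cells. Several subunit genes are switched on as myeloid progenitors mature, and inherited loss of one of them causes chronic granulomatous disease.

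Cebpa, the targeted gene, ran against the genotype labels. It read 6.93, 6.71 and 6.85 in flox/flox replicates 1, 2 and 3, and 8.71, 9.31 and 8.98 in the Mx1Cre replicates (log2 expression values). Where its probes lie relative to the deleted part was not used here, and the conflict between this gene and the labels was not resolved. Each direction is given by the deposited labels. Were the labels exchanged, every direction given here would be reversed, and this was not tested. Mx1Cre replicate 1 stood apart from the other Mx1Cre arrays on the second principal component, which carried 18.4% of the variance. Where leaving it out changed the call of a named gene, this is stated with that gene, for some genes without the value. Of the gate genes, Kit was bright in both groups (means 10.5 and 10.6), and Slamf1, which encodes CD150, was dim (5.46 and 5.29), below the lower quartile of gene levels of 5.63. Fcgr2b, which encodes the excluded FcγRII, was higher in the Mx1Cre arrays (6.74 and 7.16, 0.43 log2 units, limma adjusted p = 0.041), but with 1 array left out kept the call only without Mx1Cre replicate 1. Fcgr3, of the same family and listed with the gate genes, was lower in the Mx1Cre arrays (8.14 and 7.09, -1.04 log2 units, limma adjusted p = 0.0097). Itga2b (7.95 and 7.63) and Eng (7.37 and 7.31), which encode the excluded CD41 and endoglin, were above the median gene level of 6.64.

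Of the 5 oxidase genes, Cybb and Ncf1 rose in the arrays labelled Mx1Cre, the one in the membrane core and the other in the cytosolic part, and 0 fell. Cyba and Ncf4, which encode the partners of those subunits, had smaller positive differences that did not pass, and Rac2 showed almost none. A gene was called at an adjusted p under 0.05 in limma, with Benjamini-Hochberg adjustment over all 19937 genes. By that rule 4.91% of all genes were called, 2.63% higher and 2.28% lower. The median difference over the 5 was 0.49 log2 units, against -0.01 over all genes.

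**Figure D1:**
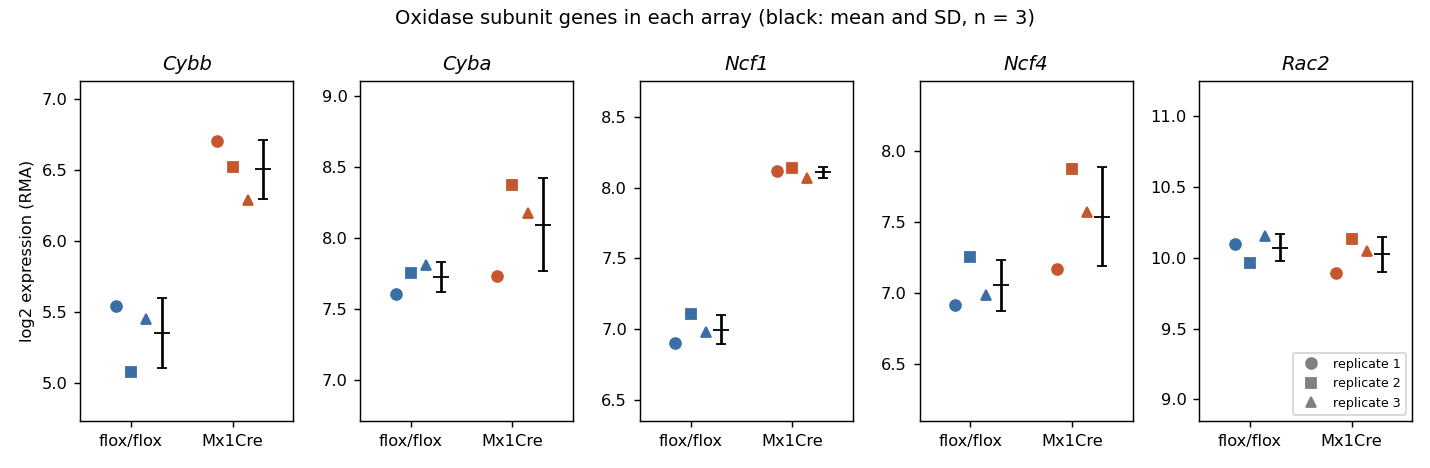
The log2 expression value (y axis, each panel spanning the same number of log2 units) of each oxidase subunit gene is plotted for the 3 flox/flox arrays (blue) and the 3 Mx1Cre arrays (orange), with symbols for replicate numbers and black marks for mean and SD (n = 3). The groups are apart for Cybb and Ncf1, while Mx1Cre replicate 1 (circle) lies among the flox/flox arrays for Cyba and Ncf4, and the groups overlap for Rac2.

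Cybb encodes gp91phox, the catalytic subunit that carries the flavin and the haems. Its log2 values were 5.54, 5.07 and 5.45 in flox/flox replicates 1, 2 and 3, and 6.71, 6.53 and 6.29 in the Mx1Cre replicates. Every Mx1Cre array was above every flox/flox array, which held in one direction or the other for 21.6% of all genes and in this direction for 10.5%. The group means were 5.35 ± 0.25 and 6.51 ± 0.21 (SD, n = 3 each), so the gene went from below the lower quartile of gene levels to near the median. Cybb was thus higher by 1.15 ± 0.14 log2 units (SE), 2.22-fold (95% interval 1.78 to 2.77, not adjusted for the number of genes), with a limma adjusted p of 0.00143. RMA, the method behind the deposited values, compresses differences of dim probe sets, so the fold of so dim a gene may be understated.

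Ncf1 encodes p47phox, the organiser subunit whose phosphorylation starts assembly. Its values were 6.90, 7.11 and 6.98 in the flox/flox arrays and 8.12, 8.14 and 8.07 in the Mx1Cre arrays. The 3 Mx1Cre arrays lay close together and well above all flox/flox arrays. The means were 6.996 ± 0.104 and 8.108 ± 0.038 (SD, n = 3 each). Ncf1 was thus higher by 1.11 ± 0.090 log2 units (SE), 2.16-fold (95% interval 1.88 to 2.48), with a limma adjusted p of 0.000116. Both stayed called under all 13 alternative settings tried.

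The bases just before the RefSeq start of Cybb, Ncf1 and Cyba are shown because the first and second rose while the third did not pass. Ncf4 and Rac2 had no entry in the promoter table used here. Each sequence is the 250 bases before the start, 5′ to 3′ on the gene's strand, in build GRCm38.p6. Capitals mark matches to the interferon response motif, taken as GAAA, then 2 bases of any kind, then GAAA, read on both strands.
Cybb: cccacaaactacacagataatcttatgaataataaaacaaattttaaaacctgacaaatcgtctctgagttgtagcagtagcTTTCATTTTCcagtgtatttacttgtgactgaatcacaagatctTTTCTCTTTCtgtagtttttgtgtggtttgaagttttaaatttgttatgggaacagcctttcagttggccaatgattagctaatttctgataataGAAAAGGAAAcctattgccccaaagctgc
Ncf1: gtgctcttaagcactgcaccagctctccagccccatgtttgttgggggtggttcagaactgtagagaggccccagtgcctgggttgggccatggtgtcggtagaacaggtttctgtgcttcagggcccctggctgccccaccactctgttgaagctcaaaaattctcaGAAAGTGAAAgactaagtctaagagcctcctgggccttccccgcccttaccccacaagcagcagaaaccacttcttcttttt
Cyba: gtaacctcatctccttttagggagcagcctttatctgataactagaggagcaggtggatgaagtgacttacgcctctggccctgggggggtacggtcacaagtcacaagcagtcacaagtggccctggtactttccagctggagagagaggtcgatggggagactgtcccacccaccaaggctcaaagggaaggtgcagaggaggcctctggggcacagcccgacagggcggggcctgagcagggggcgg

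The Cybb sequence lies at chrX:9469325-9469574, that of Ncf1 at chr5:134229626-134229875 and that of Cyba at chr8:122432941-122433190, all on the minus strand. Cybb held 3 matches, of which GAAAAGGAAA, on the gene's own strand, began 29 bases before the start. The other Cybb matches were on the opposite strand and began 168 and 124 bases before the start. Ncf1 held GAAAGTGAAA, beginning 82 bases before the start, and no match was in the Cyba window. Of 32851 windows of the same length in the table, 2.98% held this motif. The windows also differed in base composition, with a GC content of 34% for Cybb, 54.4% for Ncf1 and 60% for Cyba. GAGGAAG (PU.1-like), TTNNGCAA (C/EBP-like) and the composite ETS-IRF motif (GGAA, 2 bases of any kind, then GAAA), also read on both strands, had no match in the 3 windows, and were in 10.6%, 9.56% and 2.3% of all windows. A match is a run of letters and no evidence of binding.

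Cyba encodes p22phox, the partner that stabilises gp91phox and docks p47phox. Its values were 7.60, 7.76 and 7.81 in the flox/flox arrays and 7.73, 8.38 and 8.18 in the Mx1Cre arrays. Mx1Cre replicates 2 and 3 were above all flox/flox arrays, and Mx1Cre replicate 1 lay among them. The difference was 0.37 ± 0.15 log2 units (SE, 95% interval 0.042 to 0.71) with a limma adjusted p of 0.236. Without Mx1Cre replicate 1 it was 0.56 and passed, with a limma adjusted p of 0.0242, where the alternatives together spanned 0.0242 to 0.532. Without Mx1Cre replicate 2 it was 0.23.

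Ncf4 encodes p40phox, which binds the phosphoinositide PI3P on phagosomes. It read 6.92, 7.26 and 6.99 in the flox/flox arrays and 7.17, 7.87 and 7.57 in the Mx1Cre arrays. As for Cyba, Mx1Cre replicate 1 was the only Mx1Cre array inside the flox/flox range. The difference was 0.49 ± 0.16 log2 units (SE, 95% interval 0.12 to 0.85) with a limma adjusted p of 0.149. It was 0.67 without Mx1Cre replicate 1, with a limma adjusted p of 0.0261, and 0.32 without Mx1Cre replicate 2. Over the alternatives the adjusted p ran from 0.0261 to 0.398.

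**Figure D2:**
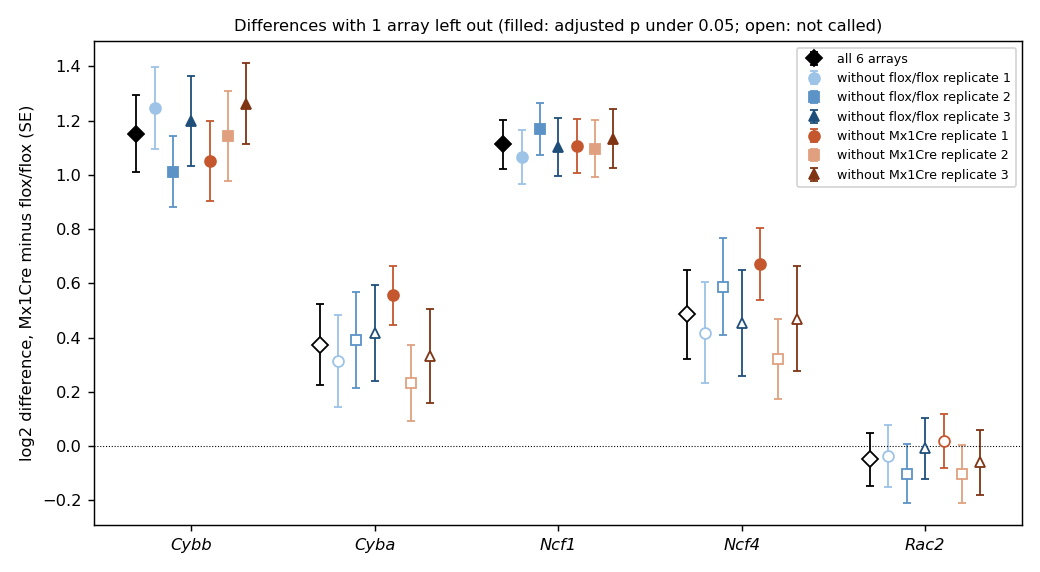
The log2 difference between labels (y axis, with limma's SE) of each oxidase subunit gene is plotted with all 6 arrays (black) and with each array left out in turn. Cybb and Ncf1 stay above 1 and called throughout (filled symbols), Cyba and Ncf4 are called only without Mx1Cre replicate 1, and Rac2 stays near 0.

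Rac2, the haematopoietic Rac GTPase that also steers actin and migration, was bright in every array, with a mean level at the 93.6th percentile of all genes. It read 10.1, 9.97 and 10.2 in the flox/flox arrays and 9.89, 10.1 and 10.0 in the Mx1Cre arrays, and the groups overlapped. The difference was -0.05 ± 0.098 log2 units (SE) with a limma adjusted p of 0.891. Its 95% interval, -0.27 to 0.17, leaves out differences as large as those of Cybb and Ncf1. The sign turned without Mx1Cre replicate 1 (0.02).

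The subunit genes were also set against each other. In each array the log2 ratio of a pair of these genes was taken, and the change of that ratio between labels was tested with a two-sided exact permutation test, for which 3 against 3 arrays cannot go below 0.1. Over the 10 pairs the smallest value after Benjamini-Hochberg adjustment was 0.143, so none could pass, and the changes are given as sizes only. The ratio of Cybb to its partner Cyba was higher in the Mx1Cre arrays by 0.78 log2 units, and that of Ncf1 to Ncf4 by 0.63. Against Rac2, the ratio of Cybb was higher by 1.201 and that of Ncf1 by 1.161. For the ratios of Cybb to Ncf1 and of Cyba to Ncf4 the differences were 0.04 and -0.11. For Cyba and Ncf4 the SD of that ratio over the 3 Mx1Cre arrays was 0.050, against 0.33 and 0.35 for each gene alone. Over the flox/flox arrays it was 0.16, against 0.11 and 0.18, so the small SD was not seen there. This pair is 1 of the 10.

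Of 3 other genes of the complex 0 passed. Cybc1, which encodes the chaperone that gp91phox needs to mature, differed by 0.06 ± 0.11 log2 units (SE, limma adjusted p = 0.889), between means of 8.11 and 8.16. Rac1, the ubiquitous Rac, differed by 0.01 ± 0.083 (0.985), and its 6 values lay between 10.7 and 10.8. Rap1a, a GTPase that copurifies with the flavocytochrome, was at -0.21 ± 0.091 (0.273). None of the 9 genes of other NADPH oxidases passed, among them Nox1, Nox4 and Duox1, with differences from -0.16 to 0.01. Of the 9, 3 had mean levels below the lower quartile of 5.63, among them Nox1 (5.07) and Nox4 (4.63). For genes so dim, little can be read from a difference near 0.

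**Figure D3:**
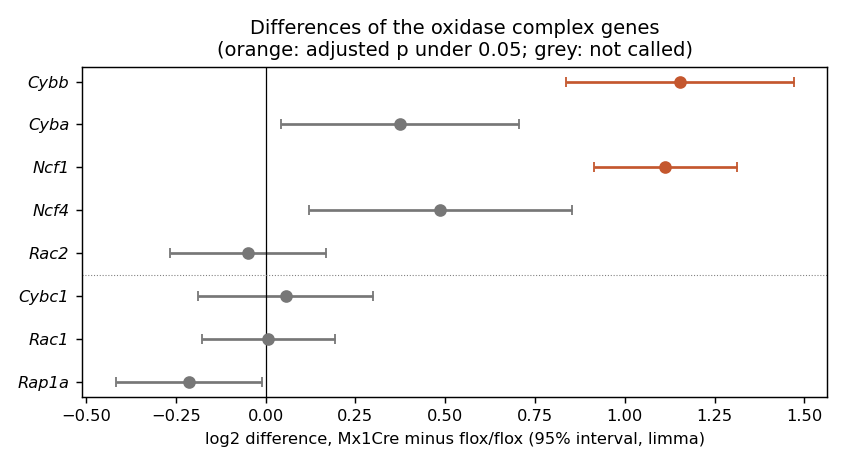
Points are limma's log2 differences, Mx1Cre minus flox/flox (x axis), with 95% intervals not adjusted for the number of genes, for the 5 subunit genes (above the dotted line) and 3 further genes of the complex. Cybb and Ncf1 (orange) are called and lie above 0.8 at their lower bounds, and the others (grey) are not called.

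Regulators of Rac, which load it with GTP, unload it or hold it in the cytosol, had 2 of 14 measured genes higher and 0 lower. Vav3, an exchange factor of phagocytes and lymphocytes, rose 1.89-fold, from 8.10, 8.32 and 8.10 to 9.18, 8.99 and 9.11 (0.92 ± 0.10 log2 units, SE, limma adjusted p = 0.000646). Tiam1, another exchange factor, rose 1.29-fold (limma adjusted p = 0.0344), but was not called without any 1 of the 6 arrays (0.0669 to 0.137). Vav1, Prex1 and Dock2, the exchange factors best known in neutrophils, did not pass, at 0.12, -0.05 and 0.11 log2 units.

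Among 17 kinases and lipid enzymes that prime or trigger the oxidase, 1 rose and 2 fell. Prkcd, the protein kinase C δ that phosphorylates p47phox, rose 1.54-fold (0.62 ± 0.091 log2 units, SE, limma adjusted p = 0.00353). Its values were 9.30, 9.07 and 9.21 in the flox/flox arrays and 9.80, 9.85 and 9.81 in the Mx1Cre arrays, with no overlap. Prkca, protein kinase C α, fell by 1.68 ± 0.15 log2 units (SE, 0.000197), and Prkcb, the β form, was at -0.001. Pla2g4a, the cytosolic phospholipase A2 that frees arachidonate, fell by 0.50 (0.017), and was not called without flox/flox replicate 1, flox/flox replicate 3 or Mx1Cre replicate 2 (0.0576 to 0.0675).

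Receptors that trigger the burst and their proximal signalling genes went both ways, with 2 of 18 higher and 2 lower. Fcgr3, a low-affinity IgG receptor, fell by 1.04 ± 0.18 log2 units (SE, limma adjusted p = 0.0097). Fcgr2b, the gene of the excluded FcγRII and of the same family, went the other way, as given above. Tnfrsf1a, a TNF receptor that primes neutrophils, rose 1.39-fold (0.0191), and Card9, an adaptor of fungal lectin receptors, 1.41-fold (0.0386). Syk, the kinase below Fc receptors and integrins, fell by 0.51 (0.044). With 1 array left out, Tnfrsf1a lost the call without flox/flox replicate 1 or 2 or Mx1Cre replicate 2 or 3, and Card9 without flox/flox replicate 2 or 3 or the same Mx1Cre arrays. Syk lost it without flox/flox replicate 1 or 3 or any Mx1Cre array.

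All 5 genes whose products work beside the oxidase were higher in every Mx1Cre array than in any flox/flox array, and 3 were called. Of all genes, 10.5% were apart in this direction and 2.63% were called higher. S100a8 and S100a9, the calprotectin subunits that carry arachidonate to the complex, rose 5.98-fold and 7.36-fold. Mpo, whose product myeloperoxidase turns hydrogen peroxide into hypochlorous acid, rose 1.39-fold (0.48 ± 0.085 log2 units, SE, limma adjusted p = 0.0103). Hvcn1, the proton channel that balances the oxidase's charge, was at 0.44 ± 0.11 (0.0554). It passed in 4 of 13 alternatives, one of them without Mx1Cre replicate 3 (0.0401). Epx, also among the eosinophil markers below, was not called at 0.18 ± 0.098 (SE, limma adjusted p = 0.425). Its means of 5.54 and 5.72 were near the lower quartile of gene levels of 5.63. Its highest flox/flox value was 5.628 and its lowest Mx1Cre value 5.684.

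Genes that supply cytosolic NADPH, the oxidase's substrate, had 0 of 9 called, with a median difference of 0.16 log2 units. Pgd, of the pentose phosphate pathway, was the nearest to a call at 0.41 ± 0.11 (SE, limma adjusted p = 0.0599), and passed in 4 of 13 alternatives. Without Mx1Cre replicate 1, 2 of the 9 were called, Pgd (0.0383) and Idh1, the cytosolic isocitrate dehydrogenase (0.56, limma adjusted p = 0.0223, against 0.38 and 0.223 with all arrays). Antioxidant genes had 1 of 25 higher and 1 lower, with a median of 0.002. Gsr, glutathione reductase, rose 1.33-fold (0.0208) and Gclm, the modifier subunit of glutathione synthesis, fell by 0.52 (0.0358), and with 1 array left out each kept the call only without Mx1Cre replicate 2. Cat, catalase, did not pass at -0.15.

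**Figure D4:**
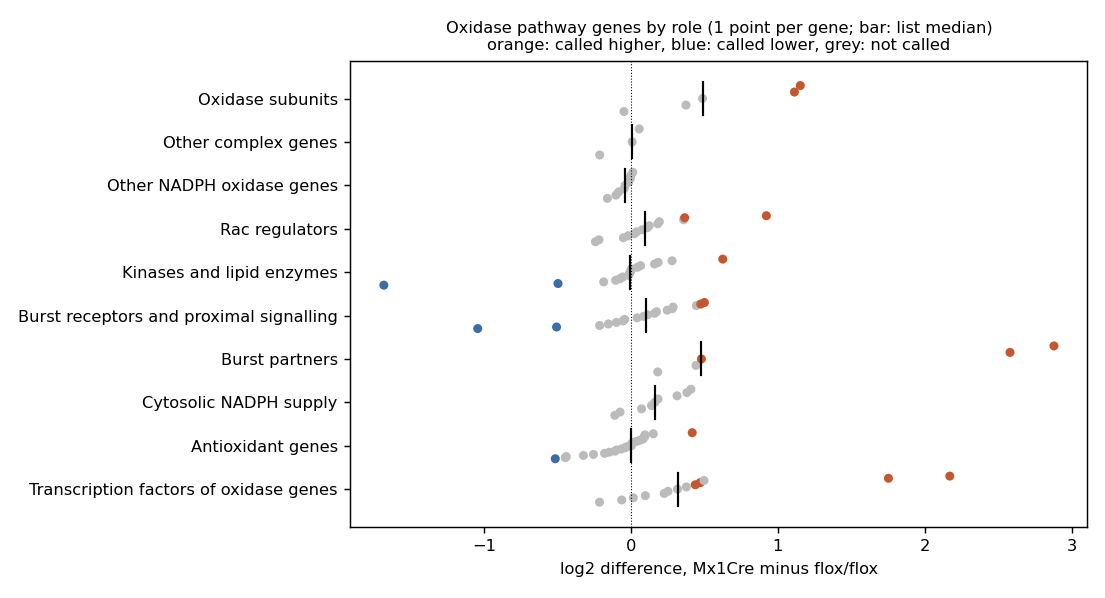
Each point is 1 gene's log2 difference, Mx1Cre minus flox/flox (x axis), in the list named on the y axis, coloured where called, with a black bar at the list's median. Oxidase subunits and burst partners have medians near 0.5, and antioxidant genes and other NADPH oxidases have medians near 0. Of the 9 other NADPH oxidase genes, 3 are below the lower quartile of gene levels.

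Transcription factors described as acting on oxidase genes had 4 of 13 measured members higher and 0 lower. Of all genes, 2.63% were called higher and 2.28% lower. The 4 include Cebpa, the targeted gene, whose direction is in conflict with the labels. Irf8, which binds with PU.1 at myeloid genes, rose 3.37-fold, from 6.44, 6.66 and 6.63 to 8.24, 8.39 and 8.35 (1.75 ± 0.095 log2 units, SE, limma adjusted p = 7.6e-06). The others were Cebpa itself (4.50-fold), Cebpd (1.35-fold, 0.0275) and Hoxa10 (1.39-fold, 0.0234). With 1 array left out, Cebpd kept the call only without Mx1Cre replicate 1, and Hoxa10 only without Mx1Cre replicate 3. Spi1, which encodes PU.1, was at 0.50 ± 0.12 (0.0502), its lowest Mx1Cre value (8.43, replicate 1) above its highest flox/flox value (8.32, replicate 1). It passed in 5 of 13 alternatives, one of them without flox/flox replicate 1 (0.0166). Without Mx1Cre replicate 2, Cebpb was called lower (-0.44, 0.0498). Irf1 did not pass at 0.015.

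The genes whose array profile lay nearest to that of Ncf1 were Crybg3, Sirpa and Slc9a7. Likeness was the root mean squared difference of log2 values, each centred on the gene's mean over the 6 arrays, and was 0.051, 0.052 and 0.072 log2 units. Sirpa encodes the myeloid inhibitory receptor that binds CD47, and its values went from 7.87, 8.10 and 7.85 to 8.99, 9.02 and 8.93. Nearest to Cybb were Cds1, Rab44 and Gria3, at 0.11, 0.12 and 0.15. They shared its low value in flox/flox replicate 2 and its high value in the Mx1Cre arrays, as Rab44 shows, at 7.95, 7.43 and 7.77 in the flox/flox arrays and 8.73, 8.74 and 8.53 in the Mx1Cre arrays.

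Monocyte and macrophage markers moved with Cybb and Ncf1, while most mature neutrophil markers were not called. Of 9 measured monocyte and macrophage markers 9 rose, and their summed linear signal went from a range of 831 to 948 in the flox/flox arrays to one of 4674 to 5417 in the Mx1Cre arrays. They were Csf1r, Ly86, Mpeg1, F13a1, Ccr2, Cd68, Ms4a6c, Adgre1 and Irf8, which is also among the transcription factors above. The list was chosen with earlier results of these data known. It holds Ly86 and Ms4a6c, ranked 1 and 2 of the 19937 genes by difference. The count and the sum are therefore a description and no independent evidence. Csf1r, the M-CSF receptor, went from 5.73 to 7.60. The least changed was Adgre1, the F4/80 antigen, which went from 5.24 to 5.75, near the lower quartile of gene levels of 5.63, and was not called without flox/flox replicate 3 (0.0612).

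Of 10 mature neutrophil markers 3 rose, Cxcr2, Ngp and Lcn2, and 7 did not pass. Among the 7, Itgam, Ly6g and Mmp9 were at -0.21, -0.03 and -0.009 log2 units, and the list's median difference was 0.34. The summed linear signal went from a range of 587 to 648 to one of 1325 to 1843. Such a sum weighs bright genes most, and Cxcr2 was the brightest in the Mx1Cre arrays (mean 9.85, against 7.07 in the flox/flox arrays). Ngp lost the call without flox/flox replicate 1 or 3 or Mx1Cre replicate 2, and Lcn2 without flox/flox replicate 1 or 3. Without Mx1Cre replicate 3 the number was 5, with Camp (0.0473) and Mmp8 (0.0471). Ly6g (4.54 and 4.51), Mmp8 (4.59 and 4.997) and Retnlg (4.94 and 5.07) were below the lower quartile in both groups.

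B cells, eosinophils and dendritic cells can also express the oxidase. Of 9 B lymphoid markers 0 rose and 1 fell, Il7r, with Vpreb1 as a second without Mx1Cre replicate 2 (0.00559). Of 5 eosinophil markers 0 passed, and Prg2 rose without Mx1Cre replicate 1 (0.0341). Of 10 dendritic cell markers Flt3 and Clec9a rose and Id2 fell, and the summed signal went from a range of 887 to 1183 to one of 1516 to 1707. Flt3, the brightest of them in the Mx1Cre arrays, went from a mean of 7.39 to 9.54, while the list's median difference was 0.13 log2 units. Without Mx1Cre replicate 1 the number higher was 4, with H2-Aa (0.00533) and Cd74 (0.0144). Clec9a (4.34 and 5.49) was below the lower quartile of gene levels of 5.63 in both groups. Clec9a lost the call without flox/flox replicate 3, and Id2 without any 1 flox/flox array. With all probe sets fitted, Flt3, Clec9a and Id2 were not called (limma adjusted p = 0.0781, 0.13 and 0.19).

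Markers of other lineages moved as well. Of 8 mast cell and basophil markers 3 rose, Mcpt8 (6.81-fold), Hdc (2.91-fold) and Ms4a2 (2.43-fold), and 2 fell, Cpa3 and Fcer1a (-0.81 and -1.75 log2 units). The summed signal went from a range of 6006 to 6304 to one of 5308 to 5849. Cpa3 was the brightest gene of that list (means 12.0 and 11.2), and the list's median difference was 0.12 log2 units. Of 9 T and NK cell markers Gzmb and Trat1 fell (-4.45 and -2.56) and 0 rose. Of 7 erythroid markers Car2, Hemgn and Rhag fell (-1.03, -0.91 and -0.86) and 0 rose, Rhag losing the call without flox/flox replicate 1 or 2 or Mx1Cre replicate 1 or 2. Of 6 megakaryocyte markers Ppbp and F2r fell (-1.32 and -0.84) and 0 rose. The summed signals of the T and NK cell, erythroid and megakaryocyte lists ranged from 4313 to 5093, 5951 to 8096 and 1238 to 1307 in the flox/flox arrays, and from 1529 to 2269, 4304 to 5393 and 803 to 939 in the Mx1Cre arrays. In the T and NK cell list Gzmb was the brightest gene of the flox/flox arrays (means 11.2 and 6.71), and the list's median difference was -0.19 log2 units. The part of these marker lists in the differences of Cybb and Ncf1 was not tested, and in sorted populations more cells of a type and more RNA per cell cannot be told apart.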

How the data were processed

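The 6 Affymetrix arrays were made from amplified total RNA (20 ng per sample, per the labels' protocols). The deposited values are log2 expression per probe set, made by the authors with RMA and the affy software, per the submitters' processing notes. For their versions and the chip definition the sources used here give nothing. Of 34760 probe sets 21640 had 1 gene symbol, and the set with the highest mean stood for a gene. Differences (Mx1Cre minus flox/flox) came from lmFit and eBayes of limma 3.58.1 (R 4.3.3), with p-values adjusted over 19937 genes. On simulated data of this comparison over 19937 genes, the test recovered 41.8% of genes changed by 0.5 log2 units and 89.6% of those changed by 1. Precision is limited by the number of arrays.

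The 5 genes and all gene lists were chosen with earlier results of these data known. Named were all called list members, some listed genes whatever their p (Cybc1, Rac1, Spi1, Irf1, Irf8, Mpo, Hvcn1, Cat and sort gate genes), and the 3 nearest profiles of each called subunit gene. Vav1, Prex1, Dock2, Prkcb, Pgd, Idh1, Cebpb, Rap1a, Nox1, Nox4, Duox1, Epx and the uncalled markers were named after their values were seen. List members without their own probe set, such as G6pdx, were not analysed here.

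The alternatives were a replicate block, each array left out, median centring, cyclic loess, a filter at the lower quartile of levels, the mean of a gene's probe sets, all probe sets fitted, and an intensity trend with a robust prior. Sequences came from RefSeq (GRCm38.p6), with 3 of the 5 genes matched by symbol.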

Additional observations from a re-analysis of the deposited data

How the results depend on the processing

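Over 13 alternatives, Cybb and Ncf1 kept their direction and call in all 13, with differences of 1.01 to 1.26 and of 1.07 to 1.17 log2 units. Their largest limma adjusted p-values, 0.0383 and 0.00683, came with all probe sets fitted, where 244 genes in place of 979 were called. In that fit Mpo (0.0594) and Fcgr3 (0.11) were not called, and with each array centred on its median Syk (0.0501) and Gclm (0.0513) were not. With 1 array left out, Cyba ranged from 0.23 to 0.56, Ncf4 from 0.32 to 0.67 and Rac2 from -0.10 to 0.017, its sign turning without Mx1Cre replicate 1. The number of the 5 genes called was then 2 to 4, and it was 4 only without Mx1Cre replicate 1. The number of all genes called fell to 541 and 547 without flox/flox replicate 1 and 3, and to 636 and 538 without Mx1Cre replicate 2 and 3.

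Nothing in the labels pairs the replicate numbers across genotypes. Same-numbered arrays correlated at 0.19, 0.052 and 0.17 in their deviations from the group means, and Mx1Cre replicate 2 correlated best with flox/flox replicate 3 (0.12), so the numbers were not taken as pairs. With the replicate block, Ncf4 was called (0.49, limma adjusted p = 0.0327), making 3 of the 5 genes, and Card9 was not (0.064). No member had a further probe set, so no values of other sets could be given. The cause of these changes was not tested.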
